A study of Mus musculus with 6 samples.

Results

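The genes described here are 42 mouse genes of the proliferation programme, 22 that serve DNA replication and 20 that serve mitosis. They were taken as a named list and found in the files through the Entrez Gene identifiers of their symbols. All 42 were among the 20007 gene identifiers of the series and all 42 had enough counts to be tested, as had 15272 genes in all. The series holds RNA sequencing of 6 libraries of cultured cells from KM mice, with 3 groups of 2 libraries. MEFs were embryonic fibroblasts labelled as 13.5 days post coitum (the protocol for their culture names 12.5 days too). CiSCs were passaged MEFs treated with small molecules left unnamed in the labels and intended to make them Sertoli-like, and they carry the same embryonic age. MSCs were plated Sertoli cells, which nourish germ cells in the seminiferous tubule, from testes of mice at postnatal day 60. Passaged but untreated MEFs are not among the groups, so passaging and induction cannot be told apart. Nothing in the labels says that the paired libraries are separate cultures or animals. The p-values therefore measure only the spread between these libraries, which may be technical.

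A dividing cell first loads the Mcm helicase onto replication origins with the help of Cdc6 and Cdt1, then fires the origins in S phase with Cdc45 and the GINS complex, and copies its DNA with polymerases held by the Pcna clamp. It then enters mitosis through cyclin B and Cdk1, builds a spindle, and separates its chromosomes once the spindle checkpoint is satisfied. Transcripts of the replication genes peak at the G1/S transition, largely under E2F factors, and transcripts of the mitosis genes peak in G2 and M. The DREAM complex represses the latter in resting cells through a promoter element called the CHR, often found near CCAAT boxes, and MuvB with B-Myb and FoxM1 activates them later in the cycle. Sertoli cells divide in fetal and early postnatal life and are described as mostly non-dividing in the adult testis, although they can divide again in culture.

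The promoters of the 42 genes were searched for the motifs these factors are known to use. RefSeq promoter windows of the assembly GRCm38.p6, running from 250 bases before to 50 bases after each start, were matched for 33 of the 42 genes, 17 for replication and 16 for mitosis. The others were Kif20a, Ccna2, Pole, Mcm4, Gins2, Aurkb, Tpx2, Ccne2 and Gins1. Each window was searched on both strands for the CHR (TTTGAA), the CCAAT box (CCAAT) and the E2F site (TTTCCCGC, TTTCGCGC, TTTGGCGC or TTTGCCGC), and matches to the E2F site were allowed to overlap. An E2F site was found for 8 of 17 replication genes (47.1%), for 1 of 16 mitosis genes (6.25%), and for 2.6% of the 27025 genes in the promoter table. The CHR was found for 10 of 16 mitosis genes (62.5%), for 2 of 17 replication genes (11.8%), and for 20.2% of all genes. All 10 of those mitosis genes, and both of those replication genes, also held a CCAAT box, a pairing found for 8.97% of all genes. The CCAAT box by itself was found for 12 of 17 replication genes, 13 of 16 mitosis genes and 41.1% of all genes. A gene with several windows counted once if any of them held the motif, so paired motifs may lie in different windows. A match is a description of the letters and not evidence that a factor binds there.

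Of the windows, 6 are printed below, picked after the search because they hold these motifs. Other genes on which the results turn do not all hold them: the Birc5 window held none of the 3 motifs. Each is written 5′ to 3′ on the strand of its gene and stops before the first base of any annotated exon of that gene, and the matched motifs are in capitals. Mcm5 and Mcm6, subunits of the replicative helicase, carry E2F sites.
Mcm5: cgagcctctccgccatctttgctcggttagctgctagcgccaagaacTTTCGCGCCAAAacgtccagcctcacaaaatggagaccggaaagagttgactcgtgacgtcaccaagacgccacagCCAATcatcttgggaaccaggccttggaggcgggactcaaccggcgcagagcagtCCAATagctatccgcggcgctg
Mcm6: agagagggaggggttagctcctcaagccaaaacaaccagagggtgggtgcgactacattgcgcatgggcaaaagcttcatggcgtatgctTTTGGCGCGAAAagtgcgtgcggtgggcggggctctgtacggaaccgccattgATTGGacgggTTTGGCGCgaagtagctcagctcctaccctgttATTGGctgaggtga
The Mcm5 window lies at chr8:75109309-75109508 on the + strand and the Mcm6 window at chr1:128359706-128359905 on the - strand. In Mcm5, 2 E2F matches on opposite strands overlap, beginning 153 and 149 bases before the start. In Mcm6, a similar overlapping pair begins 110 and 106 bases before the start and another match begins 47 bases before it. Cdk1, the mitotic kinase, and Mki67, Kif11 and Top2a carry the CHR with CCAAT boxes.
Cdk1: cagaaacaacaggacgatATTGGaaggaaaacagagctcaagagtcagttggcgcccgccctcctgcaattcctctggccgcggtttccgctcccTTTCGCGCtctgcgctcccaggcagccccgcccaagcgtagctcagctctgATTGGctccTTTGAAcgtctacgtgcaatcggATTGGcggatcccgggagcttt
Mki67: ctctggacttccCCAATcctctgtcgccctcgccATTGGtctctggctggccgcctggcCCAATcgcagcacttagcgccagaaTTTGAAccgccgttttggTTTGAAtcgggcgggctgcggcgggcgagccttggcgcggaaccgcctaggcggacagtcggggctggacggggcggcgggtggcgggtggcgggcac
Kif11: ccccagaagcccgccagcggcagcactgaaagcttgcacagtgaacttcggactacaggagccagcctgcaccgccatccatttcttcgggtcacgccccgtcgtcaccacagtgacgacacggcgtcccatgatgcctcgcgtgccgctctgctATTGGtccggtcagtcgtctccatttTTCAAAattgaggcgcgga
Top2a: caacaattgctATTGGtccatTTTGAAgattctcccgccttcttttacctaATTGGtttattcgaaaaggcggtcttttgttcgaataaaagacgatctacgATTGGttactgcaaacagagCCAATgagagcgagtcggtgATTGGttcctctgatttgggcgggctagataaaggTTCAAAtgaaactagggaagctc
These windows lie at chr10:69352939-69353138 (-) for Cdk1, chr7:135716380-135716579 (-) for Mki67, chr19:37376182-37376381 (+) for Kif11 and chr11:99024190-99024389 (-) for Top2a. Cdk1 was the only mitosis gene with an E2F match, 131 bases before the start, and its CHR in the printed stretch begins 71 bases before it. Kif11 holds 1 CHR and 1 CCAAT box, 19 and 45 bases before the start, and Mki67 holds 2 CHR matches, 116 and 98 bases before it. The shares of genes with each motif are plotted side by side.

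**Figure D1:**
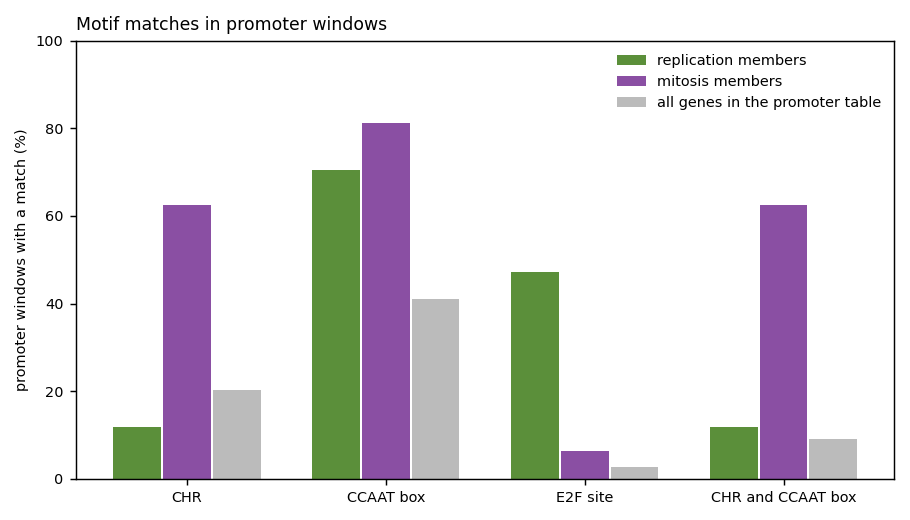
Share of RefSeq promoter windows (vertical axis, %) that hold each motif, for the 17 replication genes, the 16 mitosis genes and all 27025 genes in the promoter table. The bar for the E2F site is highest in replication genes (47.1%) and the bar for the CHR is highest in mitosis genes (62.5%).

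Library totals ran from 19294671 to 20418587 expected counts. Levels are given as CPM scaled to the effective library size, the library total multiplied by its TMM factor. That factor was 1.087 and 1.088 for CiSCs, 0.9216 and 0.9221 for MSCs, and 0.9984 and 0.9971 for MEFs. Printed levels are therefore lower for CiSCs, and higher for MSCs, than scaling to the totals alone would give. Statements on overlap between groups rest on this scaling. Levels are compared between groups and not between genes. The cell types were checked against marker lists. MEF libraries held leukocyte and macrophage transcripts at a high level: the 14 listed markers, among them Ptprc and Csf1r, summed to 13541 to 22482 CPM in MEFs, against 38.3 to 55.9 CPM in CiSCs and 1577 to 1648 CPM in MSCs, and none of the 14 was at 0 in any group. The 12 Sertoli cell markers summed to 93.7 to 103.9 CPM in MEFs, 4120 to 4850 CPM in CiSCs and 6059 to 8954 CPM in MSCs. Clu made up most of the sum in CiSCs, at 5.67 and 5.87 CPM in MEFs, 4734 and 4020 CPM in CiSCs and 4852 and 7529.9 CPM in MSCs. Of the 12, 4 were at 1 CPM or more in MEFs, 5 in CiSCs and 10 in MSCs. Of the 10 that were tested, 3 were called higher in CiSCs than in MEFs (Wt1, Cldn11 and Clu), 0 lower, and 7 did not pass. Of all tested genes 19.6% were higher. Cldn11 was at only 1.00 and 1.17 CPM in CiSCs, against 263 and 373 CPM in MSCs. Fshr was at 0 in MEFs and CiSCs and at only 0.213 and 0.217 CPM in MSCs, and Rhox5 was at only 0.585 and 0.489 CPM in MSCs. Neither of them was tested. Dmrt1 was at 0 in MEFs, and Gata4 was at 0.0954 and 0.0936 CPM in the CiSC libraries against 239.8 and 265 CPM in MSCs. The 15 germ cell markers summed to 5.77 to 6.58 CPM in MEFs, 4.68 to 5.85 CPM in CiSCs and 29.4 to 36.5 CPM in MSCs, and the 7 Leydig cell markers to at most 3.72 CPM outside MSCs and 1360 to 1393 CPM within them. The 11 fibroblast markers summed to 24395 to 25613 CPM in MEFs, 28784 to 28853 CPM in CiSCs and 38967 to 41689 CPM in MSCs. The 7 endothelial markers summed to 11.5 to 12.4, 13.1 to 14.97 and 93.9 to 98.8 CPM in the same order, and the 6 peritubular myoid markers to 3270 to 3655, 1536 to 1704 and 3746 to 3934 CPM. Most of the fibroblast sum came from Col1a1, Col1a2 and Col3a1, at means of 13938, 10290 and 14224 CPM in MSCs. In MSCs against MEFs 3 of the 11 fibroblast markers were called higher and 4 lower, where 22.5% and 20.04% of all tested genes were. The lower ones were Thy1, Postn, Lum and Pdgfrb. In CiSCs against MEFs 3 were higher and 2 lower, where 19.6% and 21.3% of all tested genes were. Apart from the germ cell sums, which overlapped between MEFs and CiSCs, the marker sums differed between the groups compared below without overlap. Their part in the results was not tested.

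The comparison of CiSCs with MEFs set the induced cells against their cells of origin. Transcripts of both sets of genes were lower in CiSCs, and no gene of either set was higher. Of the 22 replication genes 15 were lower (68.2%) and of the 20 mitosis genes 11 were lower (55.0%), where 21.3% of all tested genes were lower and 19.6% higher (edgeR quasi-likelihood test, threshold of 0.05 on the Benjamini-Hochberg adjusted p). The count of 0 genes higher was also 0 at an unadjusted p under 0.05 and 0 with DESeq2, which called 14 replication and 11 mitosis genes lower. The median log2 fold change was -0.63 for the replication genes and -0.53 for the mitosis genes, beside -0.00 for all tested genes. Both CiSC libraries lay below both MEF libraries for 18 of 22 replication genes and 18 of 20 mitosis genes, while 35.3% of all tested genes were separated in that direction, and none lay above, where 35.9% of all tested genes did. As a share of the MEF mean, the median replication gene stood at 64.8% and the median mitosis gene at 69.4% in CiSCs. The calls depended on the libraries: without CiSC library 1 or 2 the replication genes called lower were 7 and 9 and the mitosis genes 2 and 2, where 12.3% of all tested genes were lower in either fit, a share near that of the mitosis genes. Without MSC library 1 or 2, which share the estimate of spread, the mitosis genes were 7 and 7, where 16.1% of all tested genes were lower. In bulk samples, fewer dividing cells and less of each transcript per cell cannot be told apart.

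MSCs were compared with the same MEF libraries to set the values of CiSCs beside those of primary Sertoli cells. Of the replication genes 17 were lower in MSCs (77.3%) and none higher, and of the mitosis genes 11 were lower (55.0%) and none higher, against 20.04% of all tested genes lower and 22.5% higher. No gene was higher at an unadjusted p under 0.05 or with DESeq2, which called 16 and 11 genes lower. The median log2 fold change was -0.76 for replication genes and -0.48 for mitosis genes, beside 0.01 for all tested genes. Both MSC libraries lay below both MEF libraries for 19 replication genes and 19 mitosis genes, where 35.6% of all tested genes did so, and above them for 1 gene, Rrm1, where 36.9% did so. The replication genes called lower were 10 and 8 without MSC library 1 or 2, and the mitosis genes 2 and 1, where 9.31% and 9.10% of all tested genes were lower, a share near that of the mitosis genes. Without CiSC library 1 or 2 the mitosis genes called lower were 4 and 4, where 15.3% of all tested genes were lower. Since the comparisons with MEFs share their control libraries, a high or low MEF value enters both, and their values are only given side by side. Levels of each gene in each library are plotted relative to MEFs.

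**Figure D2:**
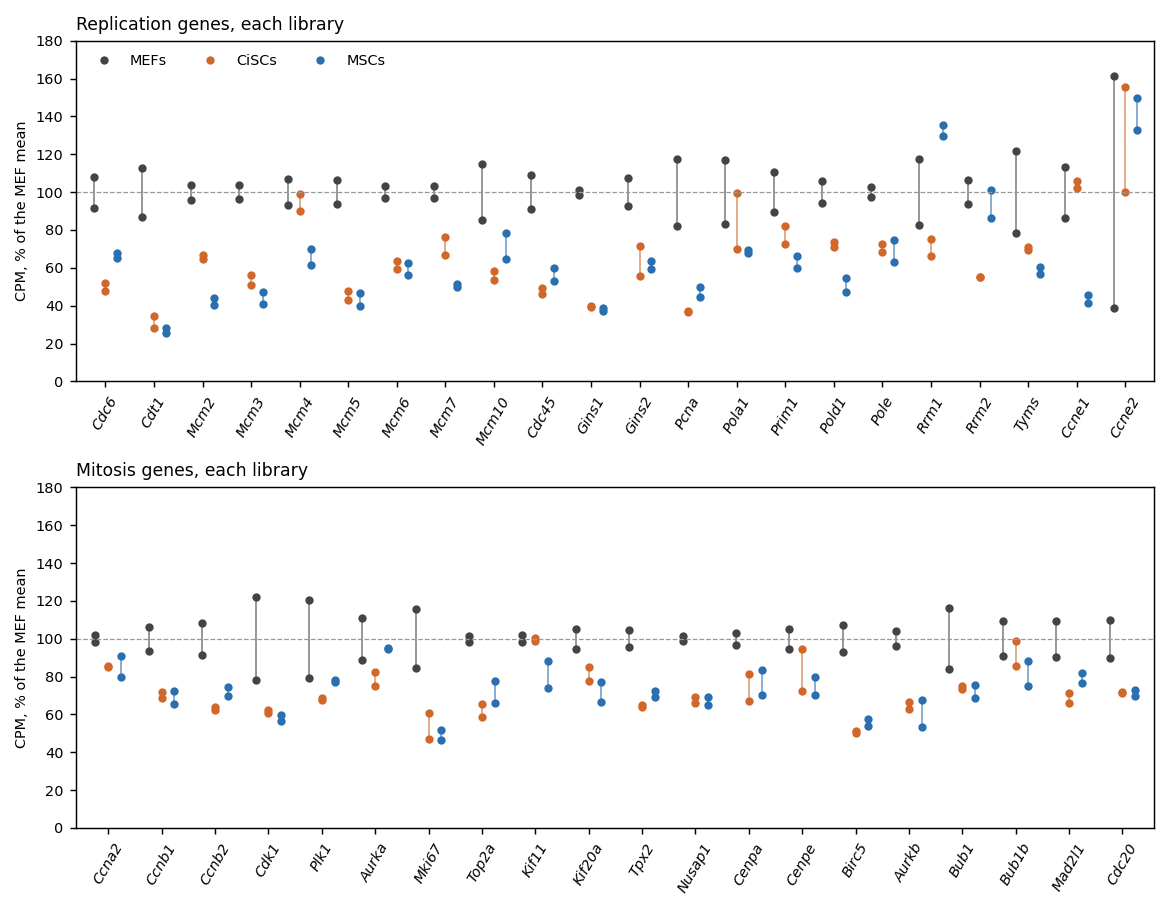
CPM of each of the 42 genes in each library as a percentage of the MEF mean (vertical axis), replication genes above and mitosis genes below; each point is a library and lines join the 2 libraries of a group. Most CiSC and MSC points sit below the MEF points, with Cdt1 lowest at 31.4% in CiSCs and 26.9% in MSCs (means). CiSC points overlap the MEF points for Mcm4, Pola1, Ccne1, Ccne2, Kif11 and Bub1b, MSC points do so for Rrm2, Ccne2 and Aurka, and Rrm1 is above them in MSCs.

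Both licensing factors were lower, and Cdt1 had the largest decrease of the 42 genes. Cdt1, which loads the helicase onto origins, was at 38.1 and 49.4 CPM in MEFs, 12.4 and 15.1 CPM in CiSCs and 12.3 and 11.2 CPM in MSCs. All CiSC and MSC libraries were thus well below both MEF libraries, by a log2 fold change of -1.67 ± 0.19 (SE, adjusted p = 0.000788) in CiSCs and -1.90 ± 0.19 (adjusted p = 0.000457) in MSCs. Cdc6, its partner in loading, was at 11.3 and 13.3 CPM in MEFs, 5.87 and 6.41 CPM in CiSCs and 8.03 and 8.37 CPM in MSCs. It fell by 1.00 on the log2 scale in CiSCs (adjusted p = 0.00587) and by 0.58 in MSCs (adjusted p = 0.0399), and the groups did not overlap. The call of Cdc6 in MSCs was lost with DESeq2, with the replicate number as a block and with only the 2 groups compared.

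Of the 6 subunits of the Mcm2-7 helicase, 5 were lower in CiSCs than in MEFs and 6 in MSCs. Mcm5 was at 59.9 and 68.1 CPM in MEFs, 27.4 and 30.6 CPM in CiSCs and 29.9 and 25.5 CPM in MSCs. It had the largest decrease of the 6 in CiSCs, with a log2 fold change of -1.14 ± 0.15 (adjusted p = 0.00166), and fell by 1.21 in MSCs (adjusted p = 0.00125). Mcm2 was at 78.6 and 85.0 CPM in MEFs, 53.0 and 54.7 CPM in CiSCs and 35.8 and 32.9 CPM in MSCs. Its libraries formed 3 separate levels with CiSCs in the middle, at -0.60 ± 0.13 (adjusted p = 0.0111) against MEFs in CiSCs and -1.25 ± 0.13 (adjusted p = 0.00053) in MSCs. Mcm4 was at 74.3 and 64.9 CPM in MEFs and at 62.7 and 68.9 CPM in CiSCs, which overlapped, and at 48.6 and 42.6 CPM in MSCs. Its log2 fold change in CiSCs was -0.08 ± 0.15 (adjusted p = 0.688) and it fell by 0.61 in MSCs (adjusted p = 0.0169). Mcm3, Mcm6 and Mcm7 fell by 0.90, 0.70 and 0.48 in CiSCs and by 1.17, 0.75 and 0.98 in MSCs.

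All 4 factors that activate the loaded helicase were lower in CiSCs. Gins1, a GINS subunit, was at 6.68 and 6.50 CPM in MEFs, 2.58 and 2.62 CPM in CiSCs and 2.55 and 2.44 CPM in MSCs. It fell by 1.34 in CiSCs (adjusted p = 0.00339) and by 1.40 in MSCs (adjusted p = 0.00287). Replicates of Gins1 lay close together and far from the MEF libraries. Gins2, of the same complex, was at 18.1 and 21.1 CPM in MEFs, 10.9 and 14.0 CPM in CiSCs and 12.5 and 11.6 CPM in MSCs, and fell by 0.65 and 0.70. Mcm10, which helps to fire the origin, was at 15.6 and 11.6 CPM in MEFs, 7.30 and 7.95 CPM in CiSCs and 10.7 and 8.80 CPM in MSCs. It passed in CiSCs (log2 fold change -0.83 ± 0.22, adjusted p = 0.0226) but not in MSCs (-0.48 ± 0.21, adjusted p = 0.117), though neither group overlapped MEFs. Cdc45, the helicase cofactor, fell by 1.06 in CiSCs and 0.83 in MSCs.

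Of the 5 genes of the polymerases and their clamp, Pcna had the largest decrease in each comparison with MEFs. Pcna, the sliding clamp that holds the polymerases, was at 103 and 147 CPM in MEFs, 46.0 and 46.6 CPM in CiSCs and 61.9 and 55.8 CPM in MSCs. Its MEF libraries differed widely, but both stood above all the others, and it fell by 1.43 in CiSCs (SE 0.19, adjusted p = 0.00172) and by 1.08 in MSCs (adjusted p = 0.00495). Pola1, the catalytic subunit of the priming polymerase, was at 25.8 and 18.4 CPM in MEFs, 15.5 and 21.99 CPM in CiSCs and 15.4 and 15.0 CPM in MSCs. CiSCs overlapped MEFs for Pola1, and its log2 fold changes of -0.24 ± 0.24 in CiSCs and -0.54 ± 0.24 in MSCs did not pass (adjusted p = 0.448 and 0.113). The catalytic subunits of the lagging-strand and leading-strand polymerases, Pold1 and Pole, fell by 0.47 and 0.51 in CiSCs and by 0.97 and 0.54 in MSCs. Prim1, the primase, had a log2 fold change of -0.37 ± 0.18 in CiSCs (adjusted p = 0.148) and fell by 0.66 in MSCs (adjusted p = 0.0275).

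Of the 3 enzymes of nucleotide supply, Rrm2 was lower in CiSCs and Tyms was lower in MSCs. Rrm2, the regulated subunit of ribonucleotide reductase, was at 80.8 and 71.3 CPM in MEFs, 41.98 and 42.01 CPM in CiSCs and 77.0 and 65.6 CPM in MSCs. CiSCs stood alone at a low level, with a decrease of 0.86 from MEFs (SE 0.14, adjusted p = 0.00433), while MSCs overlapped MEFs (log2 fold change -0.09 ± 0.14, adjusted p = 0.63). Rrm1, the large subunit, was at 129.8 and 91.2 CPM in MEFs, 73.4 and 83.4 CPM in CiSCs and 143 and 149.9 CPM in MSCs. MSCs were above both other groups for Rrm1, but neither the difference from MEFs in CiSCs (-0.50 ± 0.19, adjusted p = 0.0803) nor that in MSCs (0.41 ± 0.19, adjusted p = 0.127) passed, although without MEF library 1 the latter was 0.65 and did (adjusted p = 0.00225). Without MEF library 2 the difference in CiSCs was -0.73 and passed (adjusted p = 0.0014). Tyms, thymidylate synthase, was at 33.6 and 52.0 CPM in MEFs, 30.4 and 29.6 CPM in CiSCs and 24.2 and 25.97 CPM in MSCs. It fell by 0.77 in MSCs (adjusted p = 0.029) and had a log2 fold change of -0.51 ± 0.21 in CiSCs (adjusted p = 0.102).

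Neither gene of cyclin E, which drives the G1/S transition with Cdk2, passed in CiSCs against MEFs. Ccne1 was at 27.2 and 35.6 CPM in MEFs, 33.3 and 32.1 CPM in CiSCs and 13.1 and 14.3 CPM in MSCs. Its CiSC libraries lay within the range of MEFs, with a log2 fold change of 0.06 ± 0.17 (adjusted p = 0.804), whereas in MSCs it fell by 1.20 (SE 0.17, adjusted p = 0.00211). Ccne2 was at 8.24 and 1.98 CPM in MEFs, 5.10 and 7.95 CPM in CiSCs and 7.66 and 6.79 CPM in MSCs. The MEF libraries of Ccne2 differed by 2.06 on the log2 scale, the widest replicate gap of any of the 42 genes, and no difference between groups passed. Without MEF library 1, the higher of the pair, Ccne2 was higher than in MEFs by 1.70 in CiSCs (adjusted p = 0.00414) and by 1.84 in MSCs (adjusted p = 0.00285), and without MEF library 2 its log2 fold changes were -0.34 and -0.19.

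Among the genes of mitotic entry, Ccnb1, Ccnb2 and Cdk1, 3 of 6, were lower in CiSCs and in MSCs. Cdk1 was at 51.8 and 80.7 CPM in MEFs, 40.3 and 41.4 CPM in CiSCs and 39.6 and 37.4 CPM in MSCs. The fall was 0.70 in CiSCs (SE 0.22, adjusted p = 0.0425) and 0.78 in MSCs (adjusted p = 0.0282), with a MEF library 2 far above library 1. Ccnb1, cyclin B1, the partner of Cdk1, was at 42.7 and 48.4 CPM in MEFs, 31.2 and 32.7 CPM in CiSCs and 33.0 and 29.9 CPM in MSCs, and fell by 0.51 and 0.53. Ccna2, cyclin A2, which acts from S phase into mitosis, was at 64.3 and 62.0 CPM in MEFs, 54.1 and 53.7 CPM in CiSCs and 57.5 and 50.5 CPM in MSCs. All its CiSC and MSC libraries were below both MEF libraries, by log2 fold changes of -0.23 ± 0.13 in each group that did not pass (adjusted p = 0.205 and 0.207). Plk1, a mitotic kinase, was at 38.4 and 58.5 CPM in MEFs, 32.7 and 33.3 CPM in CiSCs and 37.9 and 37.3 CPM in MSCs. Its low MEF library stood just above MSCs, and neither difference passed (adjusted p = 0.0745 and 0.197). Aurka, the centrosome kinase, had log2 fold changes of -0.34 and -0.07 that did not pass.

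Both genes of chromosome structure were lower. Mki67, the proliferation marker that coats mitotic chromosomes, was at 198 and 269.6 CPM in MEFs, 142 and 110.4 CPM in CiSCs and 120.4 and 109 CPM in MSCs. It fell by 0.89 in CiSCs (SE 0.20, adjusted p = 0.0141) and by 1.03 in MSCs (adjusted p = 0.00767). Top2a, the topoisomerase that untangles sister chromatids, was at 169 and 174 CPM in MEFs, 101 and 112 CPM in CiSCs and 133 and 113 CPM in MSCs. The decreases were 0.69 (adjusted p = 0.00874) and 0.48 (adjusted p = 0.0322), without overlap.

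Spindle genes were split. Kif11, the motor that pushes spindle poles apart, was at 30.2 and 29.1 CPM in MEFs, 29.7 and 29.3 CPM in CiSCs and 26.1 and 22 CPM in MSCs. Its CiSC libraries lay between the MEF libraries, with a log2 fold change of -0.01 ± 0.14 (adjusted p = 0.979), the smallest of the mitosis genes in size. In MSCs it was -0.30 ± 0.14 (adjusted p = 0.125). Tpx2 and Nusap1, which nucleate and bundle spindle microtubules, fell by 0.63 and 0.56 in CiSCs and by 0.50 and 0.58 in MSCs. Kif20a, a motor of the central spindle, fell by 0.48 in MSCs (adjusted p = 0.0355) and had a log2 fold change of -0.30 ± 0.14 in CiSCs (adjusted p = 0.143).

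At the kinetochore and centromere, the passenger complex was lower and the centromere proteins did not pass. Birc5, survivin, a subunit of the chromosomal passenger complex, was at 35.5 and 40.9 CPM in MEFs, 19.1 and 19.6 CPM in CiSCs and 20.5 and 22 CPM in MSCs. It fell by 0.98 in CiSCs (SE 0.14, adjusted p = 0.00199) and by 0.84 in MSCs (adjusted p = 0.00355), and had the smallest adjusted p of the mitosis genes in each comparison with MEFs. Aurkb, the kinase of the same complex, fell by 0.63 and 0.73. Cenpa, the centromeric histone, was at 23.1 and 21.7 CPM in MEFs, 15.1 and 18.2 CPM in CiSCs and 18.8 and 15.8 CPM in MSCs. Its groups were separated from MEFs, but log2 fold changes of -0.43 ± 0.17 and -0.37 ± 0.17 did not pass (adjusted p = 0.0847 and 0.118). Cenpe, a kinetochore motor, had -0.26 ± 0.17 and -0.41 ± 0.17, which did not pass either.

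Of the spindle checkpoint and its target, 2 of 4 genes were lower in CiSCs and 1 of 4 in MSCs. Cdc20, which activates the anaphase-promoting complex, was at 33.3 and 40.8 CPM in MEFs, 26.6 and 26.4 CPM in CiSCs and 26.9 and 25.8 CPM in MSCs, and fell by 0.48 and 0.49. Bub1b, a checkpoint protein, was at 35.7 and 29.6 CPM in MEFs, 28.0 and 32.3 CPM in CiSCs and 28.8 and 24.4 CPM in MSCs. CiSCs overlapped MEFs for Bub1b, and its log2 fold changes of -0.12 ± 0.16 and -0.30 ± 0.16 did not pass. Mad2l1 fell by 0.54 in CiSCs (adjusted p = 0.0264) and had -0.33 ± 0.15 in MSCs (adjusted p = 0.111), and Bub1 had -0.43 ± 0.19 and -0.47 ± 0.19, which did not pass. The fold changes of all 42 genes are plotted with their standard errors.

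**Figure D3:**
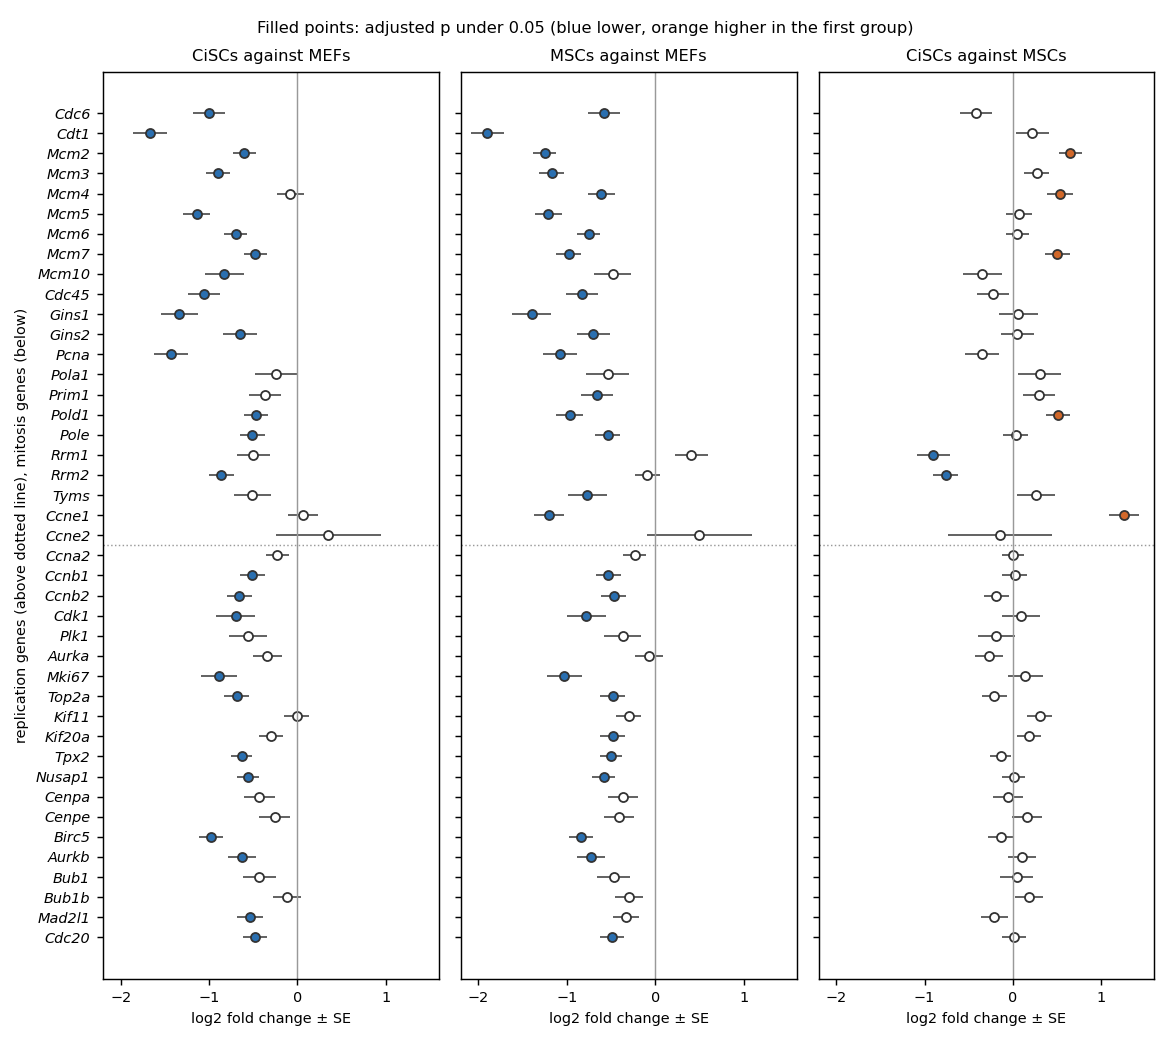
Log2 fold change (horizontal axis) of each gene in the 3 comparisons; bars are standard errors and filled points passed an adjusted p of 0.05. Against MEFs the filled points are all on the lower side, 26 of 42 in CiSCs and 28 of 42 in MSCs, and between CiSCs and MSCs 7 points are filled, all among the replication genes.

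CiSCs were then compared directly with MSCs, the cells they were meant to resemble. Mcm2, Mcm4, Mcm7, Pold1 and Ccne1 were higher in CiSCs and Rrm1 and Rrm2 were lower, so that 7 of 22 replication genes passed (31.8%), where 42.8% of all tested genes passed, 17.7% higher and 25.1% lower. Ccne1 was the largest of these, with a log2 fold change of 1.26 ± 0.17 (adjusted p = 0.00149), a level 2.39 times that of MSCs. Mcm2, Mcm4 and Mcm7 were higher by 0.65, 0.53 and 0.50 (adjusted p = 0.00775, 0.0274 and 0.0247) and Pold1 by 0.51 (adjusted p = 0.0307). Rrm1 and Rrm2 were lower by log2 fold changes of -0.90 ± 0.19 and -0.76 ± 0.14 (adjusted p = 0.00948 and 0.00612). Of the higher genes only Ccne1 was still called without any 1 of the CiSC or MSC libraries. Fewer genes were called lower without any 1 of those libraries, and more without either MEF library. Without any 1 of the CiSC or MSC libraries, the shares called higher and lower were below those of all tested genes. The share called lower without either MEF library was also below that of all tested genes.

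None of the 20 mitosis genes passed between CiSCs and MSCs with edgeR, none had an unadjusted p under 0.05, and DESeq2 called 0. Their log2 fold changes ran from -0.27 (Aurka) to 0.30 (Kif11), with a median of 0.01 beside -0.03 for all tested genes. Kif11 had the smallest adjusted p (0.135) and came with a standard error of 0.14. The libraries of the 2 groups overlapped for 10 of the 20, CiSCs were below for 7 and above for 3, where 42.5% and 38.4% of all tested genes were so separated. These p-values do not show that the levels were alike. Every comparison used the same estimate of spread, although replicates differed most in MEFs. Of the 15272 tested genes, 1416 were over 2-fold apart between the paired libraries of MEFs, 477 between those of CiSCs and 415 between those of MSCs. With only the 2 groups compared, 1 mitosis gene was higher in CiSCs than in MSCs, where 29.8% of all tested genes were. Such fits against MEFs called 7 of 20 mitosis genes lower for CiSCs and 4 of 20 for MSCs. Of all tested genes 17.7% and 16.2% were lower in those fits, and the share of mitosis genes in MSCs was near the latter. How far unequal spread set the number of calls was not tested. Without MEF library 2, 1 mitosis gene was called higher in CiSCs.

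The libraries were also placed by the mean log2 CPM over each set, with each gene centred on its mean over the 6 libraries, as a description without a test. The replication mean was 0.48 and 0.45 in MEFs, -0.26 and -0.12 in CiSCs and -0.24 and -0.30 in MSCs. The mitosis mean was 0.27 and 0.38 in MEFs, -0.16 and -0.17 in CiSCs and -0.1 and -0.22 in MSCs. Both means thus separated MEFs from the other groups, while CiSCs and MSCs overlapped. The mitosis mean less the replication mean was -0.21 and -0.072 in MEFs, 0.10 and -0.051 in CiSCs and 0.14 and 0.089 in MSCs. Relative to MEFs this value was 0.17 higher on average in CiSCs (0.14, the SDs of both groups joined as a root of summed squares) and 0.26 higher in MSCs (0.10 likewise). That difference was not tested, and CiSC library 2 lay only just above MEF library 2. Replicates also differed: the median gap between the 2 libraries of a gene was 0.21 on the log2 scale in MEFs, 0.10 in CiSCs and 0.14 in MSCs. Gaps over 0.5 were seen in MEFs for 6 genes (Pcna, Rrm1, Tyms, Ccne2, Cdk1 and Plk1) and in CiSCs for Pola1 and Ccne2.

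**Figure D4:**
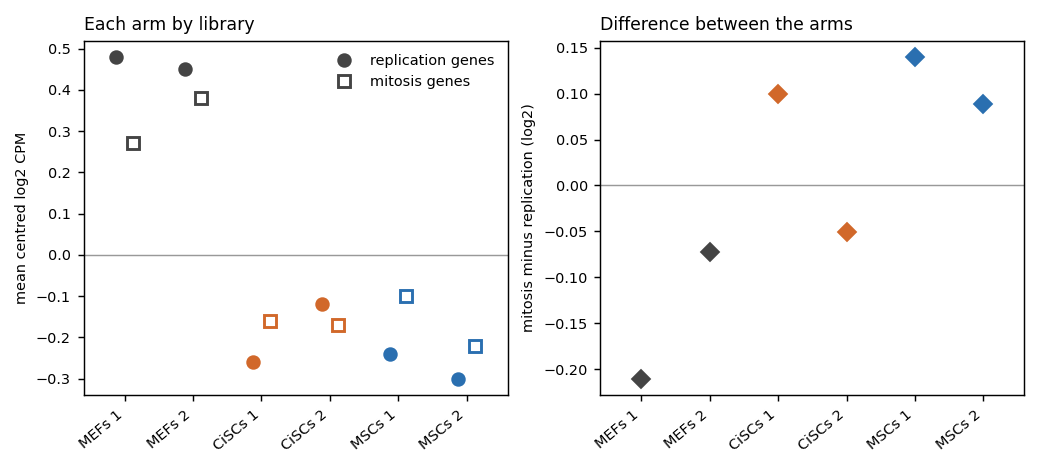
Left, mean centred log2 CPM (vertical axis) of the 22 replication genes (filled circles) and the 20 mitosis genes (open squares) in each library; right, the mitosis mean minus the replication mean. Both means are above 0 in the MEF libraries and below 0 in all others, and the difference runs from -0.21 in MEF library 1 to 0.14 in MSC library 1.

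Other genes of the same processes were taken from fixed lists. Of 46 further replication genes, 17 were lower and 2 higher in CiSCs than in MEFs, and 25 were lower and 1 higher in MSCs. The lower genes were 37.0% and 54.3% of the list, beside 21.3% and 20.04% of all tested genes. The median log2 fold changes were -0.27 and -0.60. Fen1, the flap endonuclease that trims Okazaki fragments, was at 38.3 and 42.4 CPM in MEFs, 12.9 and 12.8 CPM in CiSCs and 15.4 and 14.8 CPM in MSCs, and fell by 1.65 and 1.42. Dut, which removes dUTP, went the other way in CiSCs: it was at 20.2 and 24.9 CPM in MEFs, 55.1 and 51.8 CPM in CiSCs and 12.5 and 11.1 CPM in MSCs. Dut was higher in CiSCs by 1.24 (adjusted p = 0.00119) and lower in MSCs by a log2 fold change of -0.93. Rnaseh2a, a subunit of ribonuclease H2, was higher in MSCs than in MEFs by 1.02 (adjusted p = 0.00441). Between CiSCs and MSCs, 9 of the 46 were higher (19.6%) and 3 lower (6.52%), where 17.7% of all tested genes were higher and 25.1% lower, so that the higher share is near that of all genes. In each comparison with MEFs, fewer genes of this list were called in either direction without any 1 library of the group compared. Between CiSCs and MSCs fewer were called without any 1 of the CiSC or MSC libraries, and more without either MEF library. In all of these fits the share of the list called in either direction was below that of all tested genes.

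Of 60 further mitosis genes, 23 were lower and 1 higher in CiSCs than in MEFs, and 24 were lower and 1 higher in MSCs. Of all tested genes 21.3% and 20.04% were lower, while the genes of the list called in either direction, 24 and 25 of 60, were near the 40.9% and 42.5% of all tested genes. The median log2 fold changes were -0.35 and -0.50. Incenp, the scaffold of the passenger complex that also holds Birc5 and Aurkb, was at 65.6 and 89.7 CPM in MEFs, 31.8 and 32.8 CPM in CiSCs and 32.5 and 32.5 CPM in MSCs, with log2 fold changes of -1.26 and -1.25. Ckap2, a spindle microtubule protein, was higher in CiSCs by 0.73 (adjusted p = 0.00878) and lower in MSCs by a log2 fold change of -0.78. Cenpm, a centromere protein, was higher in MSCs by 1.34 (adjusted p = 0.0102). Between CiSCs and MSCs 5 of the 60 were higher (8.33%) and 1 lower (1.67%), where 17.7% and 25.1% of all tested genes were. The lower one was Prc1, which bundles the central spindle (-0.59 ± 0.14, adjusted p = 0.0143). In CiSCs against MEFs, fewer genes of this list were called in either direction without any 1 of the CiSC or MSC libraries. In MSCs against MEFs more were called without MEF library 1 and fewer without either MSC library. Between CiSCs and MSCs fewer were called without any 1 of their libraries and more without either MEF library. The share of the list called was near that of all tested genes in MSCs against MEFs without MEF library 1. In the other fits named here it was below that of all tested genes.

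The regulators of cell cycle entry were taken as 3 further lists. Of 9 G1 cyclins, kinases and phosphatases, 1 was higher and none lower in CiSCs than in MEFs (none lower at an unadjusted p under 0.05 or with DESeq2), 3 were lower in MSCs, and 4 were higher in CiSCs than in MSCs. The shares of all tested genes called were 19.6% for higher in CiSCs than in MEFs, 20.04% for lower in MSCs than in MEFs and 17.7% for higher in CiSCs than in MSCs. Ccnd1, cyclin D1, which starts the cycle with Cdk4 and Cdk6, was at 560.3 and 372 CPM in MEFs, 836 and 809 CPM in CiSCs and 49.2 and 42.9 CPM in MSCs. The 3 groups were fully apart, and Ccnd1 was higher in CiSCs than in MEFs by 0.82 (SE 0.21, adjusted p = 0.0222) and lower in MSCs by a log2 fold change of -3.34 (adjusted p = 0.000103). The call in CiSCs was lost without any 1 of the CiSC or MSC libraries. Cdk4 and Cdk6, named after their values were seen, had log2 fold changes of 0.05 and -0.29 in CiSCs that did not pass, and fell by 0.99 and 2.04 in MSCs.

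Of 8 CDK inhibitors, which restrain these kinases, 2 were higher and 2 lower in CiSCs than in MEFs, and 1 was higher and 4 lower in MSCs. In either direction 4 and 5 of the 8 were called, beside 40.9% and 42.5% of all tested genes, and the 25.0% higher and 25.0% lower in CiSCs were near the 19.6% and 21.3% of all tested genes. Cdkn1b, p27, was at 46.7 and 40.4 CPM in MEFs, 75.2 and 77.4 CPM in CiSCs and 88.8 and 81.4 CPM in MSCs. It was higher by 0.81 in CiSCs (SE 0.14, adjusted p = 0.0043) and by 0.97 in MSCs (adjusted p = 0.002), with no overlap. Cdkn2a, the locus of p16 and Arf, was at 48.7 and 68.1 CPM in MEFs, 49.9 and 42.5 CPM in CiSCs and 1.97 and 3.31 CPM in MSCs. Its CiSC libraries overlapped MEFs (-0.34 ± 0.25, adjusted p = 0.314), and it was lower in MSCs by a log2 fold change of -4.46 (adjusted p = 9.72e-05). Cdkn2d, p19, was lower in CiSCs by -0.80 ± 0.22 (adjusted p = 0.0279). The inhibitors called in CiSCs against MEFs were 1 and 0 without CiSC library 1 or 2, 1 without MSC library 1 or 2, and 7 without MEF library 1.

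Of 21 cell cycle transcription factors, 7 were lower and 1 higher in CiSCs than in MEFs, and 6 were lower and 4 higher in MSCs. In either direction 38.1% and 47.6% of the list were called, near the 40.9% and 42.5% of all tested genes. The lower ones were 33.3% and 28.6%, beside 21.3% and 20.04% of all tested genes. E2f1, an activator of replication genes named after its values were seen, was at 52.9 and 73.9 CPM in MEFs, 34.5 and 31.5 CPM in CiSCs and 32.6 and 34.7 CPM in MSCs. It fell by 0.94 and 0.92 (adjusted p = 0.00831 and 0.0089). Mybl2 (B-Myb) and Foxm1, activators of mitosis genes named in the same way, fell by 0.73 and 0.43 in CiSCs and by 0.69 and 0.56 in MSCs. Myc and Mycn moved apart in CiSCs. Myc was at 107 and 95.8 CPM in MEFs, 48.2 and 38.1 CPM in CiSCs and 74.3 and 78.2 CPM in MSCs, and fell by 1.23 in CiSCs (adjusted p = 0.00143). Mycn, its relative, was at 1.21 and 2.08 CPM in MEFs, 29.9 and 27.8 CPM in CiSCs and 6.91 and 6.36 CPM in MSCs. It was higher in CiSCs than in MEFs by 4.13 (SE 0.27, adjusted p = 7.79e-05) and than in MSCs by 2.12 (adjusted p = 0.000586). E2f8, an E2F repressor, fell by 1.02 in MSCs, and Rb1, which restrains E2F, was lower in CiSCs than in MSCs by a log2 fold change of -1.14 (adjusted p = 0.0029). The factors called in CiSCs against MEFs were 15 without MEF library 1, 3 without CiSC library 1 or 2 and 5 without MSC library 1 or 2, and in MSCs against MEFs 3 without MSC library 1 or 2.

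**Figure D5:**
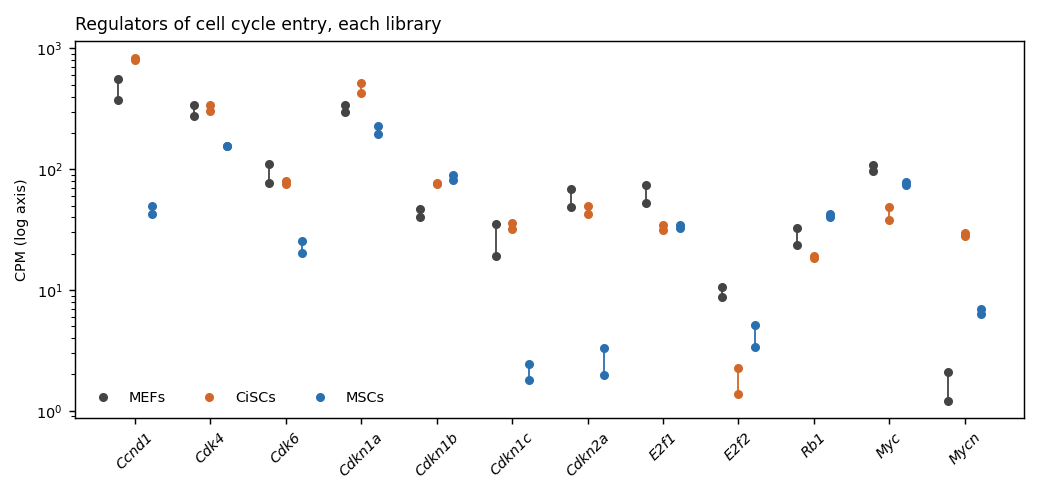
CPM (vertical log axis) of 12 regulators of cell cycle entry in each library, with lines joining the 2 libraries of a group; Cdk4, Cdk6, Cdkn1a, Cdkn1c, E2f1 and E2f2 were chosen after their values were seen. Ccnd1 is at 372 to 836 CPM in MEFs and CiSCs and at 42.9 to 49.2 CPM in MSCs, and Mycn is highest in CiSCs.

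Most calls among the 42 genes were lost when at least 1 of the libraries was left out. In CiSCs against MEFs, the calls that held in each of the 6 fits that left out 1 library were those of Cdt1, Mcm3, Mcm5, Cdc45, Gins1, Pcna and Rrm2 among the replication genes, 7 of 15, and that of Birc5 among the mitosis genes, 1 of 11. In MSCs against MEFs they were those of Cdt1, Mcm2, Mcm3, Mcm5, Mcm7, Gins1, Pold1 and Ccne1, 8 of 17, and again Birc5, 1 of 11. Between CiSCs and MSCs only the higher level of Ccne1 held in all 6 fits.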

How the data were processed

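RNA sequencing on the BGISEQ-500 platform gave 1 file per library that the authors deposited with Entrez Gene identifiers and expected counts, which are estimates and can be fractional. HISAT and the build mm9 are named in the submitters' processing notes; the counter, the annotation and strand handling are not given in the sources used here. Between 42.0% and 43.8% of the values were not whole, so normalised values cannot be told apart from estimated counts. Symbols were matched for 18891 of 20007 identifiers through a RefSeq table of GRCm38, a later build than that of the files.

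Counts were rounded and fitted in R 4.3.3 with edgeR 4.0.16 (filterByExpr, TMM scaling, quasi-likelihood F tests, two-sided, 1 mean per group, 3 residual degrees of freedom), with Benjamini-Hochberg adjustment over 15272 genes and a threshold of 0.05. Standard errors are the log2 fold change divided by the root of F. Log2 CPM used a prior count of 2. The code was tested on simulated data. Promoters came from a RefSeq table.

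The 42 genes, the pathway and marker lists and the tests were chosen with earlier results of these data known. Levels in all libraries are given for a fixed subset of the genes, for those with the smallest adjusted p or largest change, and for Mcm4, Gins1 and Rrm1, added after their values were seen; of each further list, the gene with the smallest adjusted p in each direction is named. Alternatives were leaving out each library, blocking on the replicate number, fitting the compared groups alone, stricter thresholds, other filters, other scaling, DESeq2 1.42.0 and counts not rounded. The germ cell marker Prm2 was not analysed here.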

Additional observations from a re-analysis of the deposited data

How the results depend on the processing

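With 2 libraries a group the precision was limited: the smallest difference from MEFs that passed among the 42 genes was a log2 fold change of -0.47. Of 1380 refits of 92 differences of single genes, 1112 kept direction and side of the threshold, 242 lost the call, 19 gained one and 7 changed sign. The 92 were the differences of all 42 genes from MEFs, in CiSCs and in MSCs, and 8 between CiSCs and MSCs. Those 8 were of the genes called there and Kif11, so other genes could not be counted as gaining a call there. The stricter thresholds among the 1380 refits cannot change a sign. The 7 changes of sign were of differences that had not passed with all libraries. Without 1 library, log2 fold changes against MEFs in CiSCs ran from -0.55 to 0.00 for Pola1, from -0.15 to 0.27 for Ccne1 and from -0.34 to 1.70 for Ccne2 (-0.04 without CiSC library 2), and in MSCs from -0.21 to 0.02 for Rrm2, from -0.19 to 1.84 for Ccne2 and from -0.23 to 0.06 for Aurka.

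Leaving out 1 library gave 7 to 17 replication genes lower and 0 to 1 higher in CiSCs against MEFs, 8 to 18 lower and 0 to 2 higher in MSCs against MEFs, and 1 to 6 higher and 0 to 4 lower in CiSCs against MSCs. Mitosis genes were 2 to 13 lower, 1 to 14 lower, and 0 to 1 higher. All genes called ran from 3395 to 9487, 3516 to 9745 and 3910 to 9369 in the same order of comparisons. In that order, the further replication genes called were 8 to 28, 8 to 33 and 4 to 24, the further mitosis genes 3 to 32, 4 to 39 and 3 to 19, the transcription factors 3 to 15, 3 to 14 and 3 to 8, the G1 genes 0 to 3, 3 to 6 and 3 to 7, and the inhibitors 0 to 7, 4 to 7 and 3 to 7. The mitosis mean less the replication mean, relative to MEFs, ran from 0.09 to 0.24 in CiSCs and from 0.19 to 0.33 in MSCs. Why these values moved was not tested.

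With the replicate number as a block, mitosis genes lower were 7 in CiSCs and 7 in MSCs against MEFs, where 18.5% and 16.9% of all tested genes were lower. Replication genes higher in CiSCs than MSCs were 3, where 15.1% of all tested genes were higher. Further mitosis genes called in CiSCs against MEFs were 15 and inhibitors 2. Deviations of same-numbered libraries correlated at -0.215, 0.138 and -0.129. With 2 libraries a group these values cannot show whether same-numbered libraries share more than a number, and the labels do not say. With only the groups compared, mitosis genes lower were 7 and 4, where 17.7% and 16.2% of all tested genes were lower. Between CiSCs and MSCs 1 was higher in CiSCs, where 29.8% of all tested genes were. G1 genes (0), inhibitors (1) and further mitosis genes (13) in CiSCs against MEFs also moved. So did further replication (25), further mitosis (18) and G1 genes (7) in CiSCs against MSCs. At an adjusted p under 0.01, all genes called were 3774, 4009 and 4324, replication genes lower 9 and 10, mitosis genes lower 3 and 2, and replication genes higher in CiSCs than MSCs 2. The further lists gave, at that threshold, replication 12, 12 and 5, mitosis 5, 8 and 3, transcription factors 4, 5 and 4, G1 genes 0 in CiSCs against MEFs, and inhibitors 1 there and 3 in CiSCs against MSCs. Tested against a fold of 1.5, all genes called were 3664, 3979 and 4282, replication genes lower 7 and 9, mitosis genes lower 1 and 1, and between CiSCs and MSCs 1 replication gene was higher and 0 lower. The further lists gave replication 8, 9 and 4, mitosis 4, 6 and 2, transcription factors 3, 2 and 2, G1 genes 0 and inhibitors 0 in CiSCs against MEFs, and inhibitors 3 in CiSCs against MSCs. Median-ratio size factors, DESeq2, both filters and counts not rounded moved no count of the replication or mitosis genes by over 1.5 times.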
